A study of Arabidopsis thaliana with 16 samples.

Results

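Of the 7852 regions bound in air-treated Col-0 seedlings, 1189 (15.1%, Wilson 95% interval 14.4 to 16) had their summit deep inside a gene body. Deep means here that a protein-coding gene held the summit, which was over 300 bp from both ends of every such gene. The binding values played no part in that choice beyond the peak calls themselves. ENAP1 binds EIN2, which sits in the endoplasmic reticulum membrane and passes the ethylene signal to the nucleus. Its places on the genome were mapped by sequencing DNA precipitated with it from chromatin (ChIP-seq). The 4 conditions were profiled on whole seedlings, grown for 3 days in darkness at 24 C and then treated for 4 hours: ein2 in ethylene, ein2 in air, Col-0 in ethylene and Col-0 in air. Mutants of ein2 are insensitive to ethylene, Col-0 is the wild-type accession, and ethylene was given at 10 ppm in hydrocarbon-free air. The ein2 allele is not given in the labels, and neither are the construct that carries the green fluorescent protein recognised by the antibody nor its promoter. The 16 samples make 8 groups of 2, a ChIP and an input group for each condition, and each pair of ChIP samples names 1 peak set. There is therefore no replicate spread for any value below, no difference was tested, and the intervals cover counting error only. No ChIP from plants without the tag was analysed here, so signal that the antibody gives without ENAP1 cannot be told apart from binding.

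Transcription factors and chromatin proteins of plants are found mostly in the open chromatin around gene starts and ends. The transcribed middle of a gene usually carries nucleosomes and elongating polymerase, but it can also hold introns or exons with regulatory elements, start sites of shorter transcripts, and overlapping noncoding genes. A region over 300 bp from either end is a minority position for such a protein.

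Summits became rarer with every step into the gene. Sequence over 300 bp from gene ends made up 40.2% of the chromosomes (47.9 Mb) and held 24.8 summits per Mb. Gene sequence within 300 bp of an end held 261 per Mb and sequence outside genes 42.7 per Mb. Between 301 and 400 bp from the nearest end the density was 77.9 per Mb, from 401 to 500 bp 42.9, from 501 to 750 bp 25.1, from 751 to 1000 bp 16.4, from 1001 to 1500 bp 15.5, and beyond 1500 bp 5.18 per Mb. The deep regions are thus the tail of a steady decline and not a separate peak of positions. Of the 1189, 591 lay 301 to 500 bp from an end and 204 over 1000 bp from one. The median distance was 502 bp (quartiles 370 and 813, highest 3148). The members just inside the limit lay in ALDH2C4, AT5G37670 and AT1G72790, each 301 bp from an end, with folds of 6.91, 6.02 and 5.28. Fold is the authors' ratio of ChIP signal to local background at the summit. Those just outside it lay 300 bp from an end in AT5G45430, WNK1 and AT5G03230, with folds of 8.47, 3.97 and 3.60.

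**Figure D1:**
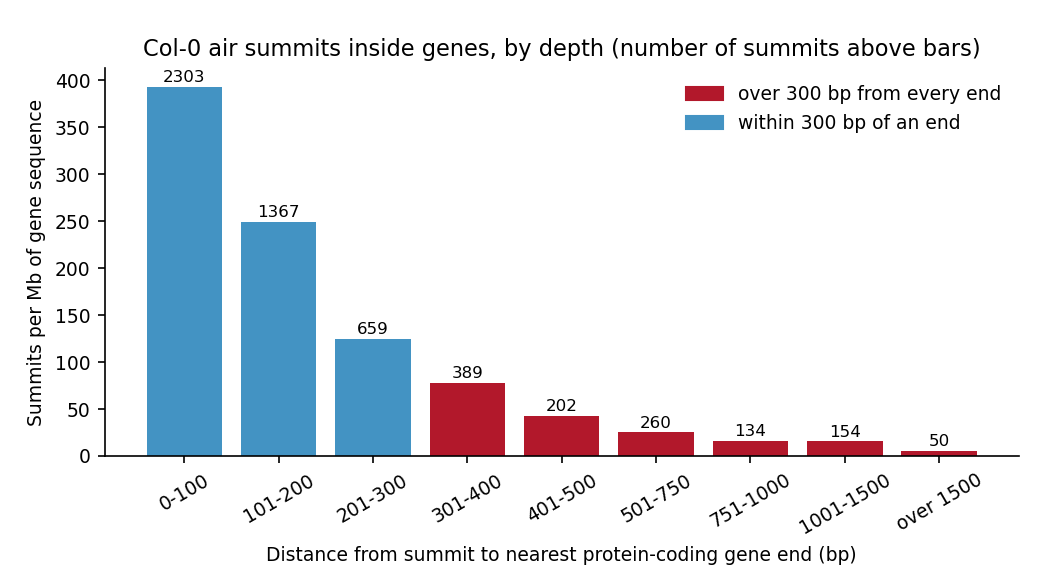
Summits of the Col-0 air set inside protein-coding genes per Mb of gene sequence (vertical axis) in classes of distance from the nearest gene end (horizontal axis, bp), with the number of summits above each bar. The density declined from 393 per Mb in the outermost class to 5.18 per Mb beyond 1500 bp.

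Along the gene, the middle was the sparsest stretch. Measured from the end with the lower coordinate, since the gene table used gives no strand, and with genes cut into 10 bins of equal length, the 2 middle bins held 214 of the members, or 16.9 per Mb of eligible sequence, against 27.7 per Mb in the rest of the eligible sequence. The lowest density, 14.4 per Mb, was in bin 5. Bins 1 and 10 had 42.2 and 44.1 per Mb, and there only genes long enough to leave sequence over 300 bp from the end could contribute. Bins 2 and 9 had 30.8 and 34.7 per Mb. The middle of a gene is also the part farthest from its own ends, and relative position was not separated from that distance.

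Host genes numbered 1098, of 25529 protein-coding genes with any eligible sequence (4.30%). Of these, 1000 held 1 member, 93 held 2 and 5 held 3. In 12 cases the summit lay inside a pair of overlapping genes, and both were counted. The host of a member had a median length of 2381 bp (quartiles 1767 and 3431, range 744 to 10558). Longer genes offered more room but were not hosts in proportion to it. Of genes of 601 to 1500 bp, 2.91% were hosts (interval 2.53 to 3.35), and the share was 4.48% at 1501 to 2500 bp, 5.09% at 2501 to 4000 bp, 5.15% at 4001 to 6000 bp and 4.09% above that. Per Mb of eligible sequence the number of members was lower in each longer class, at 61.2, 37.4, 22.5, 14.5 and 5.57. Short genes offer only sequence near an end, so gene length was not separated here from distance to the nearest end. Among genes of 1501 to 2500 bp, 28.6% of the hosts had more than 1 annotated transcript, against 39.4% of all eligible genes of that length. Above 6000 bp the difference was the other way, with 91.7% of the 36 hosts and 73.4% of the genes, and in the other 3 length classes the shares were within 2 percentage points of each other. A symbol other than the locus number was on record for 47.0% of the hosts (44.1 to 50) and 39.6% of the other eligible genes (39.0 to 40.2).

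Other annotated genes inside or beside the host were near only a few summits. A noncoding gene or pseudogene lay within 300 bp of 67 members, 5.63% (4.46 to 7.09), and 2.68% of the eligible sequence was that close to one. Of the members, 56 (4.71%, 3.64 to 6.07) were that close to a long noncoding RNA gene, against 2.06% of the eligible sequence. Both intervals lay above the matching share of sequence. Ends of host genes and of other genes carried regions in similar shares: 284 of 1098 hosts (25.9%, interval 23.4 to 28.5) had a further Col-0 air region within 300 bp of an end, and so did 25.5% (25 to 26.1) of the 24431 other eligible genes.

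Deep regions were broader than the others and of somewhat lower fold. Their median width was 378 bp (quartiles 274 and 554), against 319 bp (258 and 406) for regions inside a gene but within 300 bp of an end, called gene-end regions from here on, and 312 bp (240 and 414) for regions outside genes. Over 500 bp wide were 30.4% of the deep regions (27.9 to 33.1), 11.1% of the gene-end regions (10.2 to 12.1) and 13.3% of those outside genes (12 to 14.7). Over 1000 bp wide were 49 deep regions, 4.12%, against 0.462% of gene-end regions and 0.686% outside genes. The median fold of deep regions was 4.06 (quartiles 3.37 and 5.11, range 1.80 to 13), that of gene-end regions 4.44 (3.64 and 5.64) and that of regions outside genes 4.31 (3.70 and 5.27). In −log10 q, the authors' measure of confidence, deep regions had a median of 28.9, gene-end regions 32 and regions outside genes 22.2. Of the deep regions, 563 (47.4%) lay wholly over 300 bp from every gene end, while 123 reached past an end of their host.

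The 10 deep regions of highest fold were found in all 4 sets. The strongest lay in ATMAP65-6 (AT2G01910), a gene of the MAP65 family of microtubule-bundling proteins, at 416572 to 416922 of chromosome 2 (TAIR10), 736 bp from the nearest end of a gene of 4641 bp. Its fold was 5.22 in ein2 ethylene, 4.04 in ein2 air, 5.34 in Col-0 ethylene and 13 in Col-0 air, each within its own set. The next lay in TPS10 (AT1G60140), a member of the trehalose phosphate synthase family, at 22180503 to 22181171 of chromosome 1, with folds of 4.67, 8.04, 5.80 and 12.9 in the same order. Its summits in the 4 sets lay within 24 bp of each other. AT1G47570 had folds of 4.65, 7.56, 8.24 and 11, and ML1 (AT5G61960), a MEI2-like gene with RNA-binding motifs, 2.45, 5.69, 7.39 and 10.00. The others of the 10 lay in AT3G16230, AT3G46845, AT3G49210, COV1 (AT2G20120), which is known for its role in vascular patterning, AT5G03110 and AT2G41470, with Col-0 air folds from 9.38 to 10.6. Since fold depends on each set's own background, these values rank regions within a set and are not compared between sets.

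Strong and weak regions both occurred far from gene ends. The deep region farthest from any end, 3148 bp, lay in AT1G71710 with a Col-0 air fold of 4.18, and had a counterpart in ein2 ethylene (fold 3.15) and in no other set. At 3078 bp, the region in TGA4 (AT5G10030), a bZIP transcription factor gene of the defence response, was present in all sets, with folds of 3.18 in ein2 ethylene, 5.87 in ein2 air, 5.13 in Col-0 ethylene and 5.55 in Col-0 air. TIC (AT3G22380), a regulator of the circadian clock, had a region 2302 bp from an end with folds of 3.52, 5.54, 7.30 and 8.83. The region in AT4G35240, 2850 bp from an end and with a fold of 3.02, was shared with Col-0 ethylene, and that in AT5G04310, at 2373 bp and with a fold of 6.50, with ein2 air and Col-0 ethylene. Of all Col-0 air regions, 55.4% had a higher fold than the region in AT1G71710 and 93.0% than that in AT4G35240. For TGA4, TIC and AT5G04310 it was 23.5%, 3.20% and 13.2%.

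The 5 widest deep regions spanned 1604 to 2517 bp in Col-0 air. The widest lay in AT4G18670, whose length is 3333 bp, and had a fold of 1.78 in ein2 ethylene, no counterpart in ein2 air, 5.99 in Col-0 ethylene and 3.75 in Col-0 air. The ein2 ethylene summit was 1471 bp from that of Col-0 air. In LRX3 (AT4G13340), which encodes a leucine-rich repeat extensin of the cell wall, the region was 1655 bp wide in ein2 ethylene, 2042 bp in ein2 air, 2321 bp in Col-0 ethylene and 2152 bp in Col-0 air, in a gene of 3088 bp. The folds were 2.26, 3.40, 9.95 and 6.10. UNE1 (AT1G29300) held a region of 1913 bp, ADT5 (AT5G22630), an arogenate dehydratase gene of phenylalanine synthesis, one of 1607 bp, and the transcription factor gene GATA1 (AT3G24050) one of 1604 bp. All of these but the AT4G18670 region overlapped a region in each of the 4 sets, though not always at the same summit. In ein2 ethylene, UNE1, ADT5 and GATA1 each overlapped 2 regions. For 1 of the 2, the summit lay 737, 897 and 405 bp from that of Col-0 air, in this order. ADT5 also overlapped 2 ein2 air regions, 1 of them with its summit 896 bp away.

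**Figure D2:**
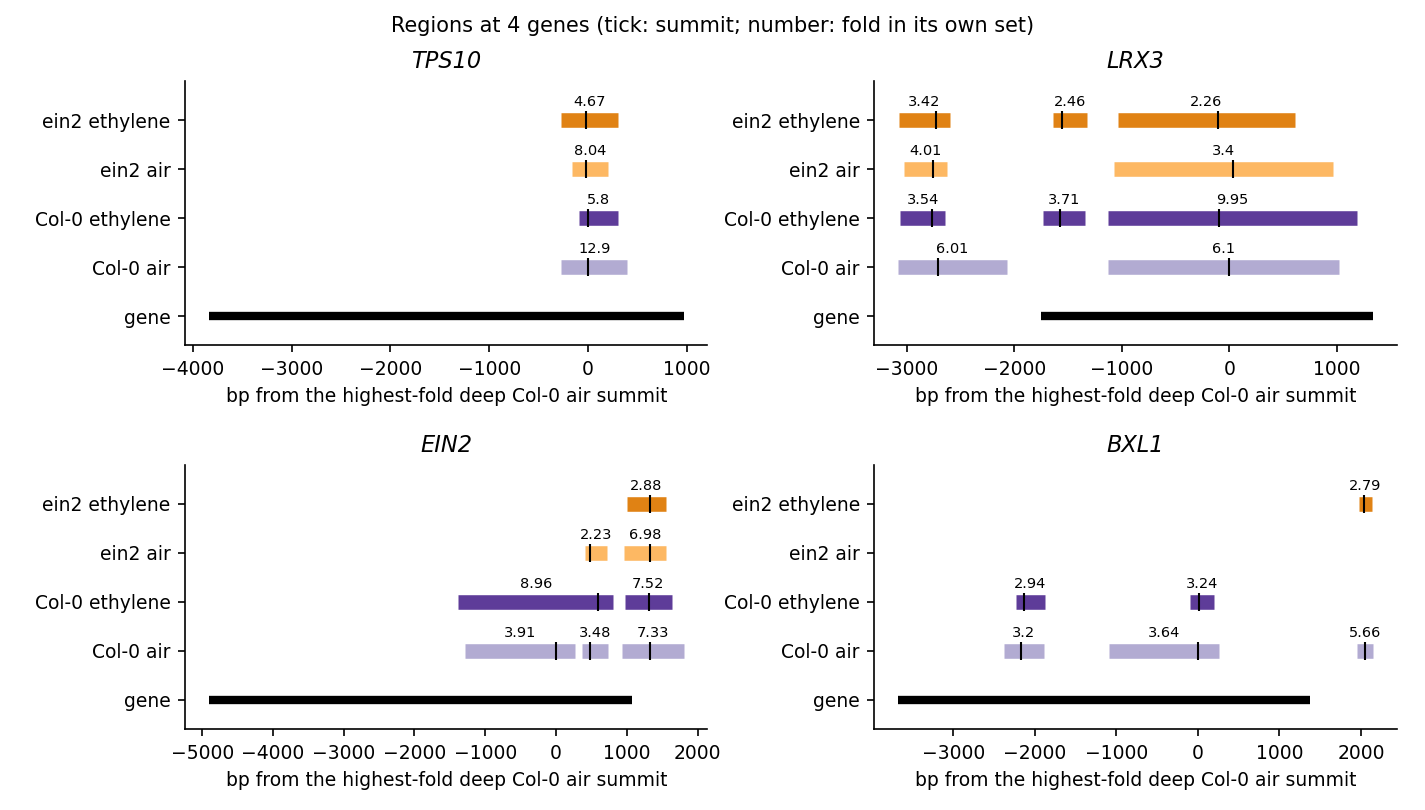
Regions of the 4 sets at TPS10, LRX3, EIN2 and BXL1, as bars along the distance in bp from the deep Col-0 air summit of highest fold in that gene, with ticks at summits, folds above the bars and the gene span in black. TPS10 shows a region of 371 to 669 bp in every set and LRX3 one of at least 1655 bp. The deep regions of EIN2 and BXL1 are in both Col-0 sets, and 1 of them, in EIN2, has a counterpart in ein2 air. TPS10, LRX3 and EIN2 were picked by the rule for named genes, and BXL1 after its values were seen.

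Deep regions of Col-0 air were found again in Col-0 ethylene more than in either ein2 set. Among the 1189, 528 (44.4%, interval 41.6 to 47.2) overlapped an ein2 ethylene region by at least 1 bp, against 51.5% of all Col-0 air regions. In ein2 air it was 475 (39.9%, 37.2 to 42.8), against 40.6% of all. In Col-0 ethylene it was 814 (68.5%, 65.8 to 71.0), against 58.2% of all. For gene-end regions the ein2 ethylene share was 55.1% (53.6 to 56.6), the ein2 air share 47.2% (45.7 to 48.7) and the Col-0 ethylene share 64.7% (63.3 to 66.1). Regions outside genes gave 48.4%, 28.7% and 40.7%. Deep regions thus had the highest share of the 3 classes in Col-0 ethylene and the lowest in ein2 ethylene, and an intermediate one in ein2 air. Their interval overlapped that of gene-end regions in Col-0 ethylene and that of regions outside genes (46.3 to 50.4) in ein2 ethylene. By chromosome, the lowest and highest shares of deep regions present were 42.2% and 47.8% for ein2 ethylene, 36.3% and 43.1% for ein2 air, and 63.0% and 74.7% for Col-0 ethylene. The chromosomes share the same peak sets and are not replicates.

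The most frequent combination was presence in both Col-0 sets and in neither ein2 set. It held 323 deep regions, 27.2% (24.7 to 29.8), against 16.3% of all Col-0 air regions and 14.3% (13.5 to 15.2) of those that were not deep. Present in all 4 sets were 309 deep regions, 26.0% (23.6 to 28.6), against 29.1% of all. In Col-0 air alone were 226, 19% (16.9 to 21.3), against 25.4% of all. The remaining combinations were 93 regions with ein2 air and Col-0 ethylene (7.82%, against 5.25% of all), 89 with both ethylene sets (7.49%, against 7.55%), 76 with ein2 ethylene (6.39%, against 10.2%), 54 with both ein2 sets (4.54%, against 4.62%) and 19 with ein2 air (1.60%, against 1.60%). The shares with both ethylene sets, with both ein2 sets and with ein2 air lay close to those of all regions. Among deep regions, those in both Col-0 sets and neither ein2 set had a median Col-0 air fold of 3.43 and a width of 350 bp. Those in all 4 sets had 5.55 and 475 bp, and those in Col-0 air alone 3.47 and 275 bp.

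**Figure D3:**
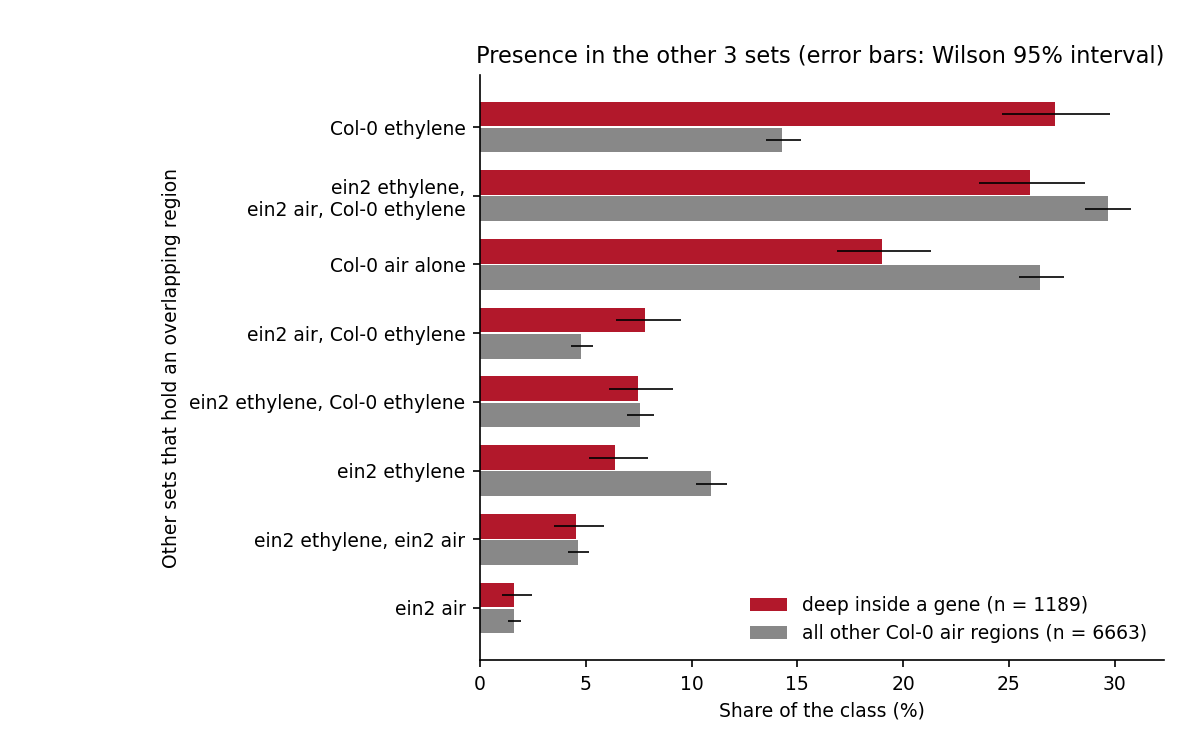
Share (%) of the 1189 deep regions (red) and of the 6663 other Col-0 air regions (grey) with each combination of overlapping regions in the other 3 sets, with Wilson 95% intervals. The combination with Col-0 ethylene and no ein2 set holds 27.2% of the deep regions and 14.3% of the others.

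Regions of low fold were found less often in the ein2 sets, and 58.1% of the deep regions were below the median fold of all Col-0 air regions, against 47.2% of gene-end regions. The shares were therefore set out in 4 equal classes of all Col-0 air regions by fold, class 1 the lowest. In class 1 (fold 1.74 to 3.61), 48.9% of 403 deep regions (44.0 to 53.8) were in both Col-0 sets and neither ein2 set, against 33.0% of gene-end regions (30.2 to 35.8) and 27.7% of regions outside genes (24.0 to 31.8). In class 2 the values were 29.9% (24.9 to 35.4), 20% (17.6 to 22.6) and 11.5% (9.30 to 14.1). Class 3 gave 14.1% (10.5 to 18.8), 10.6% (8.90 to 12.6) and 6.84% (5.11 to 9.08), and in class 4 the shares were 0.873%, 2.05% and 1.75%. The intervals of deep and gene-end regions were apart in classes 1 and 2 and overlapped in classes 3 and 4.

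In fold class 1, deep regions were above gene-end regions in Col-0 ethylene and below them in ein2 ethylene, and their intervals overlapped in ein2 air. Of the deep regions in this class, 60.5% (55.7 to 65.2) were present in Col-0 ethylene, against 47.3% of gene-end regions (44.3 to 50.3). In ein2 air it was 11.4% (8.67 to 14.9), against 10.9% (9.12 to 12.9), and in ein2 ethylene 11.4% (8.67 to 14.9), against 19.9% (17.6 to 22.4). In class 4 the deep shares were 91.7% in ein2 ethylene, 87.8% in ein2 air and 85.2% in Col-0 ethylene, and those of gene-end regions 92.8%, 89.0% and 89.6%. With 4 equal classes by width instead, the deep share was the higher one in each class, and the intervals overlapped in the narrowest. In the widest class (425 to 2517 bp) 23.7% of 486 deep regions (20.1 to 27.6) were in both Col-0 sets and neither ein2 set, against 12.5% (10.5 to 14.8) of gene-end regions, and in the narrowest (135 to 254 bp) 29.4% (23.9 to 35.6), against 23.2% (20.7 to 25.9).

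**Figure D4:**
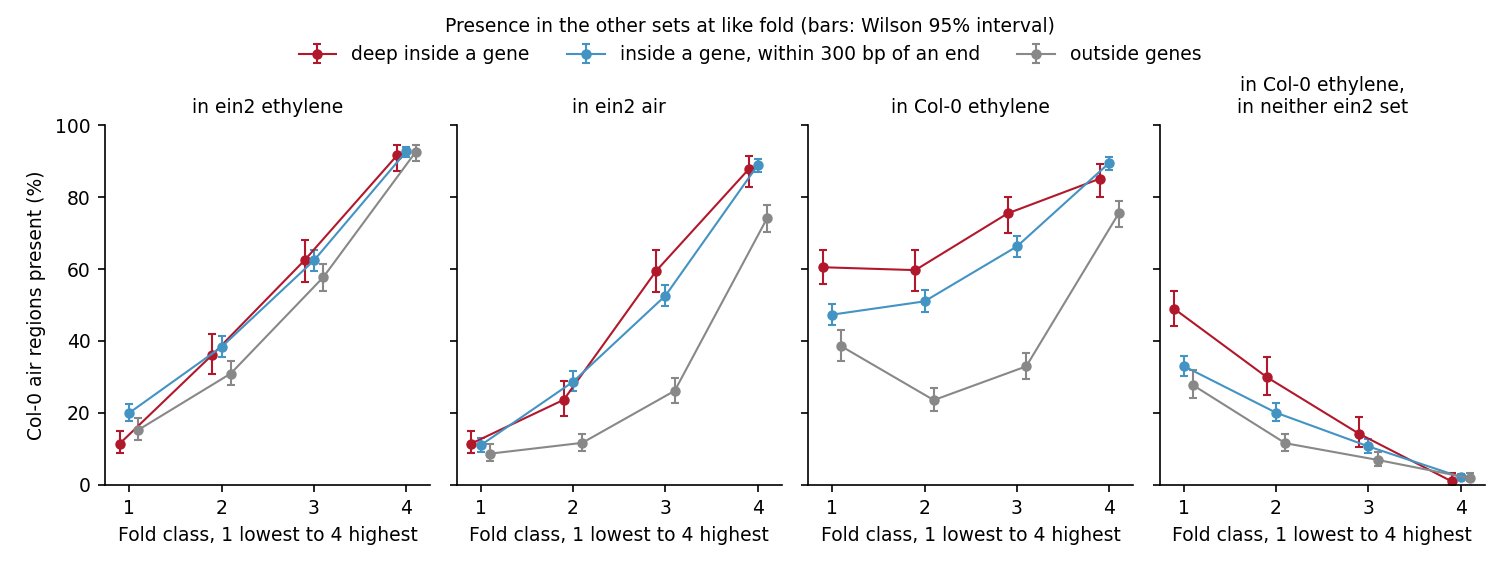
Share (%) of Col-0 air regions found in each other set, and in Col-0 ethylene but neither ein2 set, by equal class of Col-0 air fold from lowest (1) to highest (4), for deep, gene-end and outside regions, with Wilson 95% intervals. In class 1, 60.5% of the deep regions were present in Col-0 ethylene and 11.4% in each ein2 set.

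The sets differ in size and in the weakest region kept. Their lowest −log10 q was 6.57 in ein2 ethylene, 10.9 in ein2 air, 10.8 in Col-0 ethylene and 13.4 in Col-0 air. When each set was cut to its 3252 most significant regions, the number in ein2 air, 514 deep Col-0 air regions remained, of which 53.1% (48.8 to 57.4) were present in ein2 ethylene, 73.2% (69.2 to 76.8) in ein2 air and 83.1% (79.6 to 86.1) in Col-0 ethylene. Gene-end regions gave 69.0% (66.9 to 70.9), 81.1% (79.4 to 82.7) and 79.4% (77.6 to 81.1), and regions outside genes 76.1% (72.7 to 79.2), 75% (71.6 to 78.2) and 67.2% (63.5 to 70.7). Deep regions thus stayed highest in Col-0 ethylene, with an interval that overlapped that of gene-end regions, and lowest in ein2 ethylene. In ein2 air theirs was now the lowest share, with an interval that overlapped that of regions outside genes. In both Col-0 sets and neither ein2 set were 16.5% (13.6 to 20) of the deep regions and 7.27% (6.35 to 8.30) of the regions that were not deep. Library numbering differs between the air and the ethylene ChIP samples of both lines, and any batch it may mark cannot be told apart from ethylene.

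The rule was also applied to each set on its own. Of ein2 ethylene regions 12.7% were deep (598 of 4696, interval 11.8 to 13.7), of ein2 air regions 15.2% (495 of 3252, 14.0 to 16.5), of Col-0 ethylene regions 18.2% (933 of 5137, 17.1 to 19.2) and of Col-0 air regions 15.1%. At 3252 regions each the shares were 12%, 15.2%, 19.4% and 15.8%. Deep regions of Col-0 ethylene had a median fold of 3.97, above the 3.71 of the rest of that set, while in the other 3 sets the deep median was the lower one, at 2.47 against 2.75 in ein2 ethylene, 3.25 against 3.78 in ein2 air and 4.06 against 4.39 in Col-0 air. Median widths of deep regions were 288.5, 316, 403 and 378 bp.

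**Figure D5:**
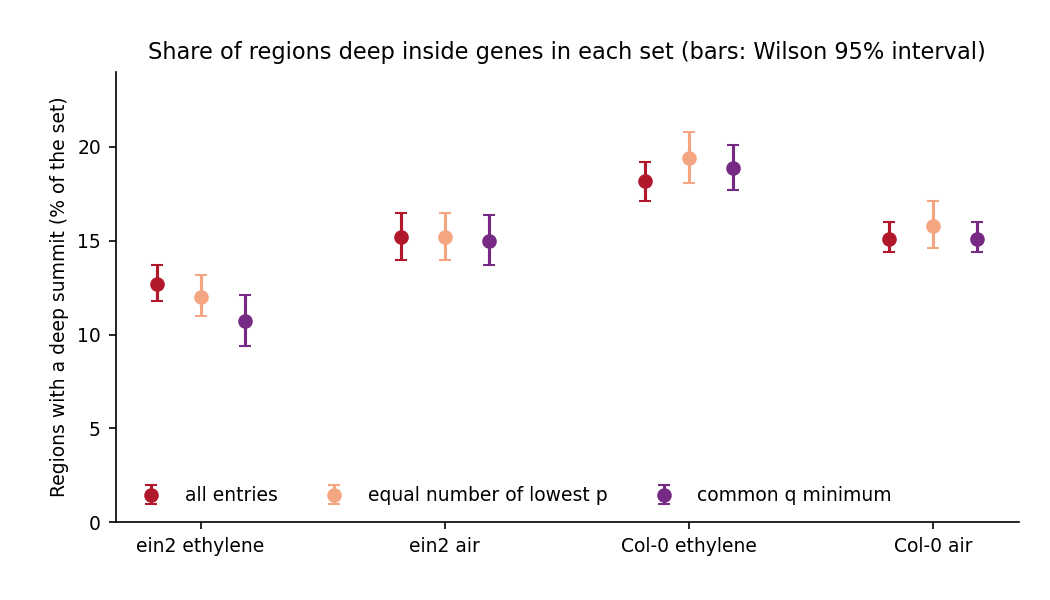
Share (%) of the regions of each set whose summit lies deep inside a gene, with Wilson 95% intervals, for all entries, for the 3252 entries of lowest p in each set, and for entries at or above the common −log10 q minimum of 13.4. With all entries the shares run from 12.7% in ein2 ethylene to 18.2% in Col-0 ethylene.

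Where a deep region had a counterpart, the summit usually stayed in place. The median distance between the summits was 14 bp in ein2 ethylene, 14 bp in ein2 air and 19 bp in Col-0 ethylene, and 94.9%, 95.8% and 92.0% of the pairs were within 100 bp. For gene-end regions the shares within 100 bp were 98.3%, 98.8% and 95.9%, and for regions outside genes 96.2%, 97.2% and 97.2%. The deep share was thus the lowest of the classes in each set. The Col-0 ethylene counterpart was the wider one in 51.2% of the cases, the ein2 ethylene counterpart in 16.3% and the ein2 air counterpart in 10.9%. When the deep region was missing from a set, the host gene mostly held no summit of that set. A summit lay in the gene for 16.6% of the 661 members absent from ein2 ethylene. It was 14.6% of the 714 absent from ein2 air and 19.2% of the 375 absent from Col-0 ethylene. With 300 bp on either side of the gene included, the shares were 21.9%, 16.9% and 22.9%.

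Presence in ein2 air was highest nearest the gene end, and its steps further in were uneven. At 301 to 400 bp from an end 49.9% of 389 members were in ein2 ethylene, 48.1% in ein2 air and 69.9% in Col-0 ethylene. At 1001 to 1500 bp it was 36.4%, 31.8% and 65.6% of 154 members. Beyond 1500 bp the 50 members gave 56.0%, 40% and 56.0%. In ein2 air it was 35.1% at 401 to 500 bp, 39.6% at 501 to 750 bp and 33.6% at 751 to 1000 bp. From the nearest class to the farthest, the median Col-0 air fold was 4.25, 3.96, 3.96, 3.82, 4.04 and 4.45. The median width was 402, 396, 364, 364, 344 and 362 bp in the same order. Distance was not separated from fold or width, and the cause of the differences was not tested.

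EIN2 (AT5G03280) was the only host among 16 genes of ethylene signalling (6.25%, interval 1.11 to 28.3), a share near the 4.30% of all eligible genes. It held 2 deep regions. In Col-0 air they spanned 791040 to 792596 and 792694 to 793073 of chromosome 5, with folds of 3.91 and 3.48. A single Col-0 ethylene region of 2189 bp covered both, with a fold of 8.96. The second had a counterpart in ein2 air, 314 bp wide with a fold of 2.23, and neither had one in ein2 ethylene. A further region ran across the nearer end of EIN2 in every set, with its summit beyond that end. Its folds were 2.88 in ein2 ethylene, 6.98 in ein2 air, 7.52 in Col-0 ethylene and 7.33 in Col-0 air. The receptor genes ETR1, ERS1, ETR2, ERS2 and EIN4, the kinase gene CTR1, and EIN3 and EIL1, which encode the transcription factors at the end of the pathway, held no deep region in Col-0 air.

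Regulators of growth in darkness and light gave 4 hosts of 15 (26.7%, interval 10.9 to 52.0), against 4.30% of all eligible genes. This list, like the others, was chosen with earlier results of these data known, so the difference is a description only. HY5 (AT5G11260), a bZIP factor that promotes seedling development in light, had folds of 2.05 in ein2 ethylene, 4.08 in ein2 air, 4.19 in Col-0 ethylene and 5.76 in Col-0 air. PIL6 (AT3G59060), also called PIF5, a bHLH factor that promotes elongation in the dark, had 2.60, 2.77, 4.84 and 6.25. The far-red photoreceptor gene PHYA (AT1G09570) had 2.90 in ein2 ethylene, 3.74 in Col-0 ethylene, 5.29 in Col-0 air and no counterpart in ein2 air, and the region in PIF4, a relative of PIL6, was in Col-0 air alone with a fold of 3.67. Hormone and immune receptor genes gave 2 hosts of 12 (16.7%, 4.70 to 44.8). PYR1, an abscisic acid receptor, held a deep region in all 4 sets, and WOL, the cytokinin receptor AHK4, one in Col-0 air alone. COB, which is needed for oriented cell expansion, was the only host among 10 cell wall genes (1.79% to 40.4%). The cell wall interval includes the 4.30% of all eligible genes, and the receptor interval starts just above it.

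Cytochrome P450 genes, which encode oxidases of hormone and secondary metabolism, gave 22 hosts among 249 eligible genes (8.84%, interval 5.91 to 13), against 4.30% of all eligible genes and 4.48% of those of 1501 to 2500 bp. The list has a median length of 2092 bp. Of its 24 deep regions, 11 (45.8%) were present in ein2 ethylene, 11 (45.8%) in ein2 air and 18 (75%) in Col-0 ethylene, near the 44.4%, 39.9% and 68.5% of all deep regions. Among the hosts, DWF4, CPD and ROT3 act in brassinosteroid synthesis and BAS1 in brassinosteroid inactivation. CPD (AT5G05690) was present in every set, with a Col-0 air fold of 4.46. DWF4 (AT3G50660) was shared with ein2 ethylene, and BAS1 was in Col-0 air alone. ROT3 (AT4G36380) held 2 deep regions, of which 1 was shared with Col-0 ethylene (fold 3.12) and the other with ein2 ethylene (fold 3.28). CYP707A1, an abscisic acid hydroxylase gene, had folds of 3.23, 5.88, 2.74 and 5.47. AOS (AT5G42650), the allene oxide synthase of jasmonate synthesis, had a region of 920 bp with folds of 2.29 in ein2 air, 5.96 in Col-0 ethylene and 4.67 in Col-0 air. The tryptophan oxidase genes CYP79B2 and CYP79B3 and the lignin gene FAH1 were shared with Col-0 ethylene alone.

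WRKY transcription factor genes gave 9 hosts of 71 (12.7%, 6.81 to 22.4), namely WRKY4, WRKY11, WRKY17, WRKY22, WRKY25, WRKY27, WRKY57, WRKY65 and WRKY69. Of their 10 regions, 7 were present in ein2 ethylene and 7 in ein2 air, each with an interval of 39.7% to 89.2%, while 6 were in Col-0 ethylene (31.3% to 83.2%), and these intervals include the 44.4%, 39.9% and 68.5% of all deep regions. MYB genes gave 8 hosts of 125 (6.40%, 3.28 to 12.1), among them MYB34 and MYB51, regulators of indole glucosinolate synthesis. NAC genes gave 7 of 97 (7.22%, 3.54 to 14.2), with RD26 (AT4G27410), a drought-induced factor, in all 4 sets at folds of 3.13, 4.60, 6.19 and 7.23. NAC083 held 2 deep regions, both overlapped by an ein2 ethylene region and neither by a Col-0 ethylene one. For 1 of them the ein2 ethylene summit lay outside NAC083, 609 bp from that of Col-0 air. The MYB and NAC intervals include the 4.30% of all eligible genes.

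Other lists had few hosts or none. ABC transporter genes, with a median length of 4612 bp, gave 1 host of 126 (0.794%, 0.140 to 4.36), the auxin transporter gene ABCB4, and calcium-dependent kinase genes 1 of 34 (2.94%, 0.521 to 14.9), CPK9. No host was found among 28 chromatin regulator genes with a median length of 6179 bp, which allows a share of up to 10.7%. The same was true of 25 genes with an ARF symbol (up to 12%), 44 with a CRK symbol (up to 6.82%), 7 flowering genes (up to 42.9%) and 4 housekeeping genes (up to 75%). Each of these limits, and the upper bound for ABC transporters, lies above the 4.30% of all eligible genes.

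Most genes with several deep regions held members with different combinations of sets. In 27 of the 98 genes with more than 1 member (27.6%, interval 19.7 to 37.1), all members had the same combination of sets. The share that deep regions of different genes would give was not computed, so this is a count only. CSLA02 (AT5G22740), a glucomannan synthase gene of 5502 bp, held 3 in Col-0 air, with folds of 4.41, 4.21 and 4.96. The first was shared with ein2 ethylene and ein2 air, the second with Col-0 ethylene and the third with ein2 ethylene. SIP1 (AT5G40390), the raffinose synthase gene RS5, held 3 with folds of 5.15, 3.06 and 2.86, and a single Col-0 ethylene region of 2323 bp spanned them. The first of them was also in both ein2 sets. AT5G23850 held 3, all present in Col-0 ethylene, and AT5G40720 and AT5G67430 also held 3 each.

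Named examples show the range of each combination. Of the regions in both Col-0 sets and neither ein2 set, the highest Col-0 air folds were 6.90 in AT2G34350, 5.66 in BBX28 (AT4G27310), a B-box gene, and 5.41 in PUB26 (AT1G49780), a ubiquitin ligase gene, with Col-0 ethylene folds of 3.59, 3.61 and 3.23. BXL1 (AT5G49360), a cell wall xylosidase gene, belongs here with both of its deep regions and was picked after its values were seen, at folds of 2.94 and 3.24 in Col-0 ethylene and 3.20 and 3.64 in Col-0 air. Col-0 air alone was led by LAC8 (AT5G01040), a laccase gene, at 5.88, AT3G43850 at 5.49 and PLP5 (AT4G37060), a patatin-like lipase gene, at 5.48. Present everywhere but Col-0 ethylene were AT4G29930, AT5G25770 and AT2G36320, at Col-0 air folds of 8.62, 7.60 and 7.49. Missing from ein2 air were GL22 (AT1G02335), a germin-like gene, at 8.63, SKS6 at 8.0 and AT4G36230 at 7.29. Missing from ein2 ethylene were AT2G45380 at 7.73, AT5G04310 at 6.50 and AT4G12270 at 6.47. Shared with ein2 ethylene alone were AT1G66480 at 6.20, a NAC083 region at 6.01 and MLO15 at 5.92. That NAC083 region overlapped an ein2 ethylene region whose summit lay outside the gene. Shared with ein2 air alone were AT3G26610, a polygalacturonase gene also called PGX1, at 5.15, AT3G07570 at 5.09 and AT2G25460 at 5.07.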

How the data were processed

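Per the submitters' processing notes, BWA, MACS2 2.1.0.20150603 and the TAIR10 build were used. Of the BWA version, filters, thresholds and the way replicates were combined, nothing is stated in the labels. The deposited files give per peak a fold enrichment (a ratio), −log10 p and −log10 q values, a score and a summit offset, all computed by the authors' peak caller. They hold no read counts, so depth is unknown. Of 6 peak files, 4 are named in sample labels and were used, and the other 2 were not used here.

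No 2 entries of the Col-0 air set overlapped. Entries were used as deposited, on chromosomes 1 to 5, with 1-based positions. The gene spans are those of RefSeq's TAIR10.1 table (27444 protein-coding genes on these chromosomes), whose name differs from the files' build. None of its coordinates is printed. As a check, 71.3% of Col-0 air summits lay within 300 bp of a gene end, and at most 27.3% after shifts of 1000 to 5000 bp. The table has no strand or exons, and no sequence was used, so introns, exons, UTRs and motifs were not analysed here. Where genes overlapped, length and position refer to the longer one.

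Eligible sequence is every base inside a protein-coding gene and over 300 bp from every gene end. Overlap of 1 bp counted as presence. Members, rule and lists were chosen with earlier results of these data known. Hand-written lists numbered 7 (all their loci in the table), and 8 were found by symbol or synonym. Named were the hosts of the 10 highest folds, the 3 highest per combination of sets, the 5 widest, the 5 farthest from an end, genes with 3 members, list genes, and the 3 regions on each side of the limit. Functions were tested on simulated intervals. Intervals are Wilson 95%. The limit a count of 0 allows in a gene list is 3 counts. Python 3.11.15, pandas 2.3.3, numpy 2.4.6 and scipy 1.17.1 were used.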

Additional observations from a re-analysis of the deposited data

How the results depend on the processing

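No paired analysis was possible because each condition has 1 peak set for both replicates, and for the same reason no replicate could be left out. The share of deep regions, 15.1% by the main rule, was 7.62% over 500 bp and 23.5% over 200 bp from every end, 14.1% by the middle of the entry, 7.17% with the whole entry over 300 bp from every end, and 12.8% among regions with a fold of at least 4. With at least 50% of the member covered, presence was 35.6% in ein2 ethylene, 34.1% in ein2 air and 65.3% in Col-0 ethylene. At the common −log10 q minimum of 13.4 it was 17.8%, 32.8% and 60.8% in the same order, with ein2 ethylene now the lower ein2 set. With equal numbers of regions it was 53.1%, 73.2% and 83.1%. Over 500 bp from every end it was 41.1% in ein2 ethylene and 36.3% in ein2 air. With the whole entry over 300 bp from every end, chosen after seeing the data, it was 38.5%, 31.8% and 64.5%. The share in both Col-0 sets and neither ein2 set, 27.2%, was examined under these settings after seeing the data. It was 31.0% at 50% coverage, 31.5% at the common minimum, 16.5% with equal numbers, 30.9% over 500 bp, 24.4% over 200 bp and 31.1% for whole entries. The causes were not tested. In all settings run, presence in Col-0 ethylene was the highest of the 3, but not in every class of deep regions. In fold class 4 it was 91.7% in ein2 ethylene, 87.8% in ein2 air and 85.2% in Col-0 ethylene. For the 36 members in genes over 6000 bp it was 69.4%, 52.8% and 61.1% in the same order. In the lower fold classes and the shorter length classes, presence in Col-0 ethylene was the highest. Since depth is unknown, an absent region is not shown to be unbound.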

Other observations

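The Col-0 ethylene set holds 24 regions over 3000 bp wide, from 3723 to 23126 bp and all on chromosome 2, and they overlap 1 deep Col-0 air region, in AT2G07739.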
